A study of Mus musculus with 6 samples.

Results

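The Bcl2 family regulators of apoptosis were examined in lung of adult female F1 mice, as every probe set that the platform annotation assigned to a single symbol among 10 genes: Bcl2l11, Bbc3, Pmaip1, Bid, Bad, Bcl2, Bcl2l1, Mcl1, Bax and Bak1. The rule found 29 probe sets of 9 genes, among 45037 probe sets of 18193 named genes in the table. Bax was not analysed here. Lung was compared between (AKR/J × FVB/NJ)F1 females (AKR_F1) and (DBA/2J × FVB/NJ)F1 females (DBA_F1), on 3 arrays of each cross, to ask how the genotypes differ at baseline. The labels name no treatment before euthanasia under Avertin anaesthesia. All mice shared a chromosome set from FVB/NJ and differed in the set inherited from the other inbred strain. The tissue was snap frozen and total RNA was hybridised to Affymetrix arrays. The labels give no age beyond adult, and whether the arrays stand for separate animals is not stated, so p-values measure the spread between these samples, which may be technical. The 10 genes were chosen by role and with the same AKR_F1 against DBA_F1 differences of these arrays known, so the differences of the members are a description of these arrays and not independent evidence.

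Bcl2 family proteins decide whether the outer mitochondrial membrane is opened, the step that lets cytochrome c out of mitochondria and starts the caspase cascade. BH3-only proteins carry the death signal. Bim (Bcl2l11), Puma (Bbc3) and Bid bind a broad range of anti-apoptotic members and can also switch on the pore formers, while Bad and Noxa (Pmaip1) each neutralise only some of the anti-apoptotic members. Bcl-2 (Bcl2), Bcl-xL (Bcl2l1) and Mcl-1 hold the death signal in check, and Bax and Bak (Bak1) form the pore. Much of this control acts on protein, which arrays of RNA do not measure.

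Bim had the largest differences between the genotypes among the members. Its promoter windows are shown for that reason, together with the window of Bbc3 that held the same motif. FoxO factors are known to induce transcription of both genes in other settings, and the FoxO core GTAAACA was searched on both strands, with TGTTTAC as its reverse complement. The windows come from RefSeq on the GRCm38.p6 build, which is the C57BL/6J genome and not that of a parent used here. They run from 250 bases before to 50 bases after an annotated transcript start, and capitals mark the motif.
Bcl2l11 first start, chr2:128125788-128126087, plus strand: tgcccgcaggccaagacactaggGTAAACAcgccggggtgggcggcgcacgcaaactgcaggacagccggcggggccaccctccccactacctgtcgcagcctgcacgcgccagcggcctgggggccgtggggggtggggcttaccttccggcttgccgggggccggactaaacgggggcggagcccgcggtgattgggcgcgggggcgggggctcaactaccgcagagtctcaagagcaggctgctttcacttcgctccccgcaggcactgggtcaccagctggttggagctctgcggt
Bcl2l11 second start, chr2:128127325-128127624, plus strand: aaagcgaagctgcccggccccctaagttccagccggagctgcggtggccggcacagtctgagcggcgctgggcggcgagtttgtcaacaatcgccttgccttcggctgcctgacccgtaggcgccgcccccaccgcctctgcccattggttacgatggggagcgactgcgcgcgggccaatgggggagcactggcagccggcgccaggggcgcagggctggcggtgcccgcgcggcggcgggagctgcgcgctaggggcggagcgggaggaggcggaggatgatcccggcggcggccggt
Bbc3, chr7:16310011-16310310, plus strand: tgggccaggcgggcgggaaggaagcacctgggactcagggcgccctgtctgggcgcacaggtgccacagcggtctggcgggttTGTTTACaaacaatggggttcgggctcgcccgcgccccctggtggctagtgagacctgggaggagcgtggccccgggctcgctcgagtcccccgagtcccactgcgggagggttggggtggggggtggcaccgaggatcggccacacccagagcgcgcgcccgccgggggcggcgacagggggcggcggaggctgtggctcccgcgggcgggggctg
The table held 15 such windows for 9 of the 10 genes (all but Pmaip1), and 2 of the 15 held the motif, against 3.65% of all 32851 windows in the table. GC content ranged from 49.3% in a Bcl2l1 window to 78.0% in a Bbc3 window, with a median of 52.7% over all windows. A match is a description of the reference letters and no evidence of binding in these lungs.

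Signals were log2 values per probe set, and each probe set is compared only with itself across arrays. Of the 29 member probe sets, 27 lay above the filter on low signal (a mean log2 of 4.72 over all arrays) and were tested. The differences are AKR_F1 minus DBA_F1 from a limma fit over all 27022 tested probe sets, with Benjamini-Hochberg adjustment over all of them and a call at an adjusted p under 0.05. In that fit 4 of the 27 member probe sets were called, all higher in AKR_F1 and all of Bcl2l11, where 2.62% of all tested probe sets were called, 1.57% higher in AKR_F1 and 1.05% lower. The median difference of the 27 was 0.015, against 0.023 over all tested probe sets. The groups did not overlap in 11 of the 27, 7 of them higher and 4 lower in AKR_F1, where 23.6% of all tested probe sets did not overlap (14.6% higher and 9.02% lower). Outside Bcl2l11 the groups did not overlap in 7 of 22 probe sets.

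The composition of the tissue varied between arrays. The alveolar type 2 marker list, with the surfactant genes, had a mean log2 signal of 12.34 to 12.46 on AKR_F1 arrays and 12.12 to 12.29 on DBA_F1 arrays, which fits the lung label. The mean log2 signal of 10 squamous epithelial genes was 4.94 on AKR_F1 replicate 1, 4.81 on replicate 2 and 9.24 on replicate 3. In DBA_F1 it was 8.74 to 9.45, so AKR_F1 replicates 1 and 2 stood apart from the other 4 arrays. Skeletal muscle genes (7 tested) split the arrays alike, with means of 5.78, 5.26 and 10.36 in AKR_F1 and 9.66 to 10.27 in DBA_F1. The mean of 8 adipocyte genes was 7.70 to 8.31 in AKR_F1 and 9.12 to 9.86 in DBA_F1. Of 14 marker lists, 5 did not overlap between the groups. The means of adipocytes and brown adipocytes lay lower on every AKR_F1 array, and those of alveolar type 2 cells, endothelium and T cells lay higher. The T cell gap was narrow, with 7.15 on AKR_F1 replicate 2 against 7.14 on DBA_F1 replicate 2. AKR_F1 replicate 3 was the highest in T cell signal at 8.20. Of the 14 lists, the squamous and adipocyte means were tried as covariates in alternative fits. The part of the other lists in the results was not tested. In whole lung, fewer cells of a type and less RNA per cell cannot be told apart.

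Bim was higher in AKR_F1 lung by 4 of its 5 probe sets. The brightest of them, 1456005_a_at, had log2 signals of 9.52, 9.42 and 9.51 on the AKR_F1 arrays, against 8.62, 8.73 and 8.82 on the DBA_F1 arrays. Every AKR_F1 array was thus above every DBA_F1 array, and the gap between the groups was wider than the spread within either. The means were 9.48 ± 0.057 and 8.72 ± 0.10 (SD, n = 3 each), a difference of 0.76 ± 0.065 (SE), or 1.69-fold.

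The other 3 Bim probe sets with a clear gap were dimmer and had differences of like size. Probe set 1435449_at had 6.91, 6.75 and 6.80 in AKR_F1 and 6.12, 6.01 and 6.20 in DBA_F1. Probe set 1456006_at had 6.40, 6.51 and 6.51 in AKR_F1 and 5.72, 5.43 and 5.78 in DBA_F1. Again no DBA_F1 array reached the lowest AKR_F1 array in either probe set. The dimmest, 1426334_a_at, had 5.77, 5.66 and 5.87 in AKR_F1 and 5.08, 4.94 and 5.27 in DBA_F1. Over these 4 probe sets the difference ran from 0.67 to 0.83, or 1.6-fold to 1.78-fold, and the adjusted p of the limma fit over all probe sets ran from 0.00265 to 0.027.

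The fifth Bim probe set, 1435448_at, had a much smaller difference. It was the second brightest, with 8.38, 8.26 and 8.30 in AKR_F1 and 8.13, 8.10 and 8.30 in DBA_F1, and the groups overlapped. Its difference was 0.14, with a 95% interval from -0.026 to 0.30. Within each array, 1456005_a_at exceeded 1435448_at by 1.14, 1.15 and 1.21 in AKR_F1 and by 0.49, 0.63 and 0.52 in DBA_F1. The 5 probe sets of Bim thus did not give a single size of difference. Which transcript ends or isoforms the probe sets read, and whether strain variants lie under their probes, was not tested.

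**Figure D1:**
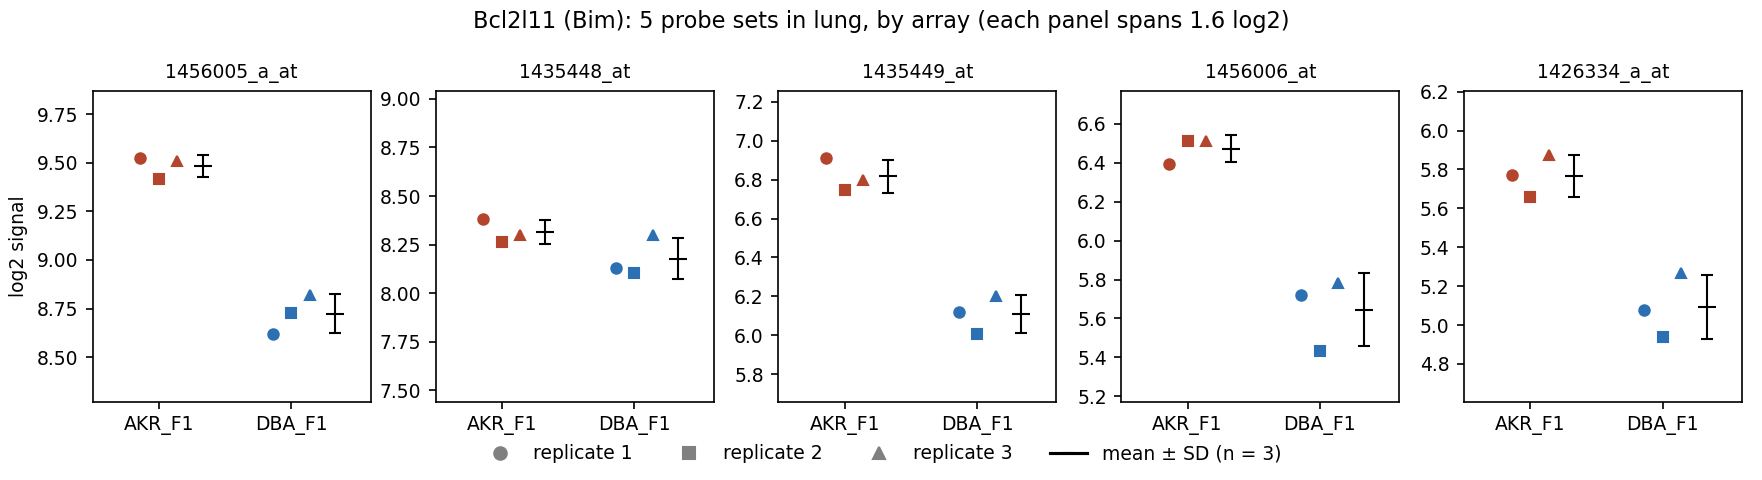
Log2 signal of the 5 Bcl2l11 (Bim) probe sets on each array, AKR_F1 left and DBA_F1 right, with the mean and SD of 3 arrays beside the points. In 4 panels all AKR_F1 arrays lie above all DBA_F1 arrays, by 0.67 to 0.83 on average, while in 1435448_at the groups overlap.

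Of the marker lists, only the squamous and adipocyte means were set against the Bim difference. The alveolar type 2, endothelium and T cell means, also higher on every AKR_F1 array, were not, and their part in the Bim values was not tested. In AKR_F1 replicate 3, which carried the squamous signal like the DBA_F1 arrays, Bim 1456005_a_at was 9.51 and lay between AKR_F1 replicates 1 and 2. That array alone against DBA_F1 gave a difference of 0.79 (limma adjusted p = 0.0855), and leaving it out gave 0.75. With the squamous mean as a covariate the difference was 0.78 and kept its call (adjusted p = 0.0174). The other 3 probe sets lost theirs under that covariate, 1435449_at with 0.68 (adjusted p = 0.0633), 1456006_at with 0.83 (adjusted p = 0.0782) and 1426334_a_at with 0.75 (adjusted p = 0.102). With the adipocyte mean as a covariate 1456005_a_at had 0.76 and lost its call (adjusted p = 0.959), in a fit where the covariate itself separates the groups and only 4 probe sets of all tested were called. Under the same covariate 1435449_at had 0.64, 1456006_at 0.27 and 1426334_a_at 0.36, none of them called, and how far the adipocyte signal and the Bim signal depend on each other cannot be told apart in this design. The call of 1456006_at was lost without AKR_F1 replicate 1 (0.87, adjusted p = 0.052) or AKR_F1 replicate 2 (0.81, adjusted p = 0.0705). The call of 1426334_a_at was lost without AKR_F1 replicate 1 or 2 or DBA_F1 replicate 1 or 2, with an adjusted p of 0.11 at the highest. Those of 1456005_a_at and 1435449_at were kept in all 6 fits that left out an array.

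Bim lies on mouse chromosome 2, and the genes around it were read in the chromosome order of RefSeq GRCm38.p6. Among the 5 tested genes on either side, by the brightest probe set of each, only Acoxl was called in the limma fit, where 2.48% of all tested genes were (1.42% higher in AKR_F1 and 1.06% lower). The groups did not overlap in 2 of these 10 genes, Acoxl and Zc3h8, where 23.6% of all tested probe sets did not. Zc3h8 had 6.65, 6.53 and 6.65 in AKR_F1 and 6.21, 6.37 and 5.98 in DBA_F1 (0.43 ± 0.108 SE, limma adjusted p = 0.104). Acoxl, the next tested gene to Bim and named for its likeness to acyl-coenzyme A oxidases, had 8.91, 8.75 and 8.76 in AKR_F1, against 8.08, 7.80 and 7.61 in DBA_F1. The groups lay far apart, with a difference of 0.97 ± 0.118 (SE; adjusted p = 0.0102), or 1.96-fold. Among the fits that left out an array, that call was lost without AKR_F1 replicate 1 or 2 or DBA_F1 replicate 2 (adjusted p up to 0.0554). The Acoxl call was also lost with the squamous or the adipocyte mean as a covariate (limma adjusted p = 0.959 with the adipocyte mean). Morrbid, the next gene on the other side, is a long noncoding RNA known in mice to restrain Bim in short-lived myeloid cells. It had 6.80, 6.95 and 6.78 in AKR_F1 and 6.76, 6.74 and 6.88 in DBA_F1, with overlapping groups and a difference of 0.05 (95% interval -0.129 to 0.23). Anapc1, a subunit of the anaphase-promoting complex, had a difference near 0 by its brightest probe set (0.001, 95% interval -0.109 to 0.11), while its probe set 1434444_s_at was called (0.33 ± 0.060 SE, adjusted p = 0.0386), in 2 of the 6 fits that left out an array. Around the other 8 measured members, 0 of 80 neighbouring tested genes were called by limma. Of these 80, 16 had an unadjusted p under 0.05 in that fit, where 18.4% of all tested probe sets did.

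**Figure D2:**
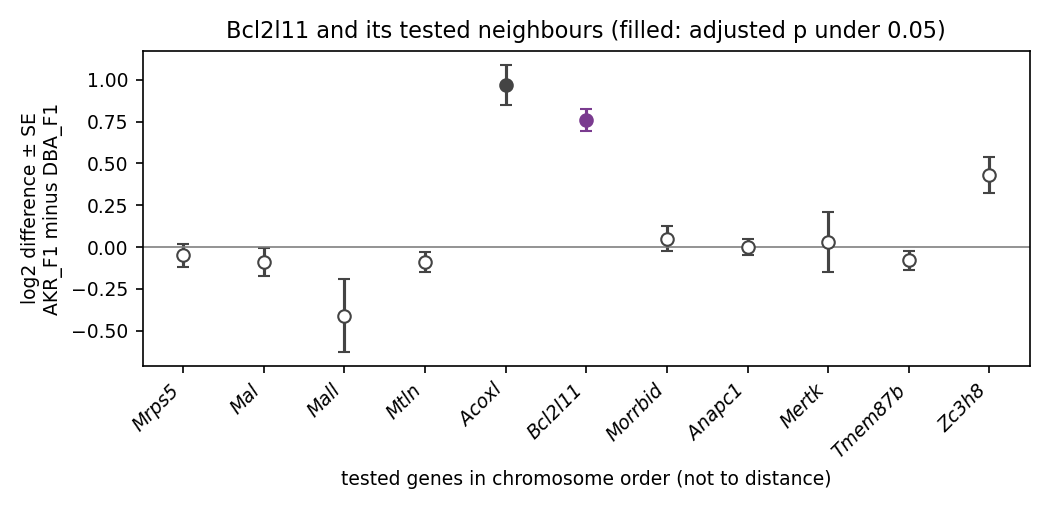
Log2 difference (AKR_F1 minus DBA_F1, brightest probe set, bars SE) of Bcl2l11 and the 5 tested genes on each side in chromosome order. Acoxl (0.97) and Bcl2l11 (0.76) are called and Morrbid (0.05) and Anapc1 (0.001) sit at the zero line.

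Of the other BH3-only genes, none was called. Puma, which p53 is known to induce, had 7.12, 7.12 and 6.90 in AKR_F1 and 7.01, 6.75 and 6.85 in DBA_F1 at its only probe set, 1423315_at. The groups overlapped, with a difference of 0.18 (95% interval -0.050 to 0.41). Noxa, a partner of Mcl-1, had 7.58, 8.0 and 8.35 in AKR_F1 and 7.30, 7.93 and 8.56 in DBA_F1 by 1418203_at. The arrays of each group spread over 0.77 and 1.26 log2, the widest spread of any tested member in both groups, so that the difference of 0.04 has a 95% interval from -0.725 to 0.81 and a sizeable change in either direction was not detectable.

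Bid, which links death receptors to mitochondria once caspase-8 has cut it, had small negative differences. Its brightest probe set, 1417045_at, had 6.16, 6.19 and 6.39 in AKR_F1 and 6.52, 6.43 and 6.45 in DBA_F1, without overlap. The difference of -0.22 ± 0.082 (SE) was not called (adjusted p = 0.229), and 1448560_at had -0.16 with overlapping groups. AKR_F1 replicate 3 was the array nearest to DBA_F1 in both, and alone against DBA_F1 it gave -0.073 and -0.043. The remaining probe set, 1447873_x_at, lay at 2.82 to 3.02 on all arrays, below the filter.

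Bad, which growth factor signalling is known to hold inactive by phosphorylation, had 8.09, 7.94 and 7.98 in AKR_F1 and 8.11, 8.11 and 8.14 in DBA_F1 by 1416582_a_at. By 1416583_at it had 7.58, 7.51 and 7.52 in AKR_F1 and 7.86, 7.62 and 7.61 in DBA_F1. Neither probe set overlapped between the groups, but the differences of -0.12 and -0.16 were small and not called (adjusted p = 0.325 and 0.333).

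**Figure D3:**
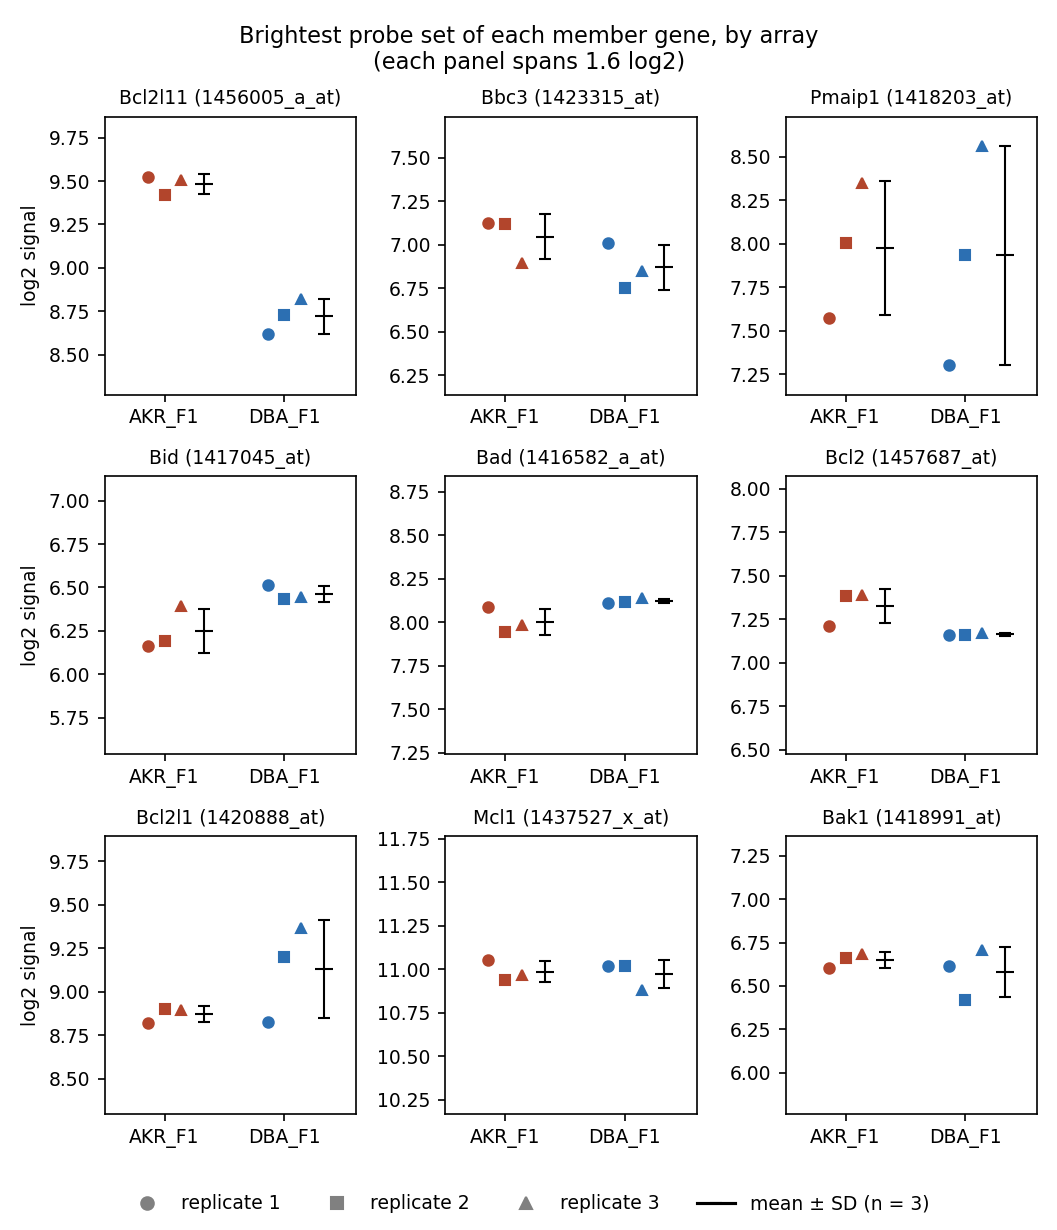
Log2 signal of the brightest probe set of each of the 9 measured genes, AKR_F1 left and DBA_F1 right, with the mean and SD of 3 arrays; every panel spans 1.6 log2. Bcl2l11 shows the only wide gap, Pmaip1 the widest spread within groups, and Mcl1 nearly equal levels.

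Among the anti-apoptotic genes, 0 of 14 tested probe sets were called by limma. Of the 5 Bcl2 probe sets 4 had positive differences, all 3 of Bcl2l1 had negative ones, and those of Mcl1 lay close to 0. At an unadjusted p under 0.05 there were 3 of the 14, where 18.4% of all tested probe sets passed. Bcl2, known for keeping lymphocytes alive, had its largest difference at 1443837_x_at, with 6.84, 7.16 and 7.23 in AKR_F1 and 6.47, 6.75 and 6.57 in DBA_F1. The groups did not overlap and the difference was 0.48 ± 0.122 (SE; adjusted p = 0.102). The brightest Bcl2 probe set, 1457687_at, had 7.21, 7.38 and 7.39 in AKR_F1 and 7.16, 7.16 and 7.17 in DBA_F1, a difference of 0.16. Of the other Bcl2 probe sets, 1437122_at had 6.48, 6.63 and 6.53 in AKR_F1 and 6.43, 6.38 and 6.42 in DBA_F1, also without overlap, and a difference of 0.14. The groups overlapped in 1422938_at (0.024) and 1440770_at (-0.10), so the Bcl2 probe sets did not share 1 sign. The T cell marker list, with 8 genes, had means of 7.38, 7.15 and 8.20 in AKR_F1 and 7.02, 7.14 and 7.01 in DBA_F1, and the B cell list overlapped between the groups at 7.27 to 7.84 in AKR_F1 and 7.36 to 7.64 in DBA_F1. Their part in the Bcl2 values was not tested.

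Bcl-xL, which protects many cell types and is needed by red cell precursors, had negative differences in all 3 tested probe sets, and none was called. The brightest, 1420888_at, had 8.82, 8.90 and 8.90 in AKR_F1 and 8.82, 9.20 and 9.37 in DBA_F1. DBA_F1 replicate 1 lay among the AKR_F1 arrays, and the other DBA_F1 arrays lay above them. Probe set 1420887_a_at had 7.54, 7.58 and 7.61 in AKR_F1 and 7.62, 8.01 and 8.05 in DBA_F1. Here the groups did not overlap, although DBA_F1 replicate 1 lay just above the highest AKR_F1 array and well below the other DBA_F1 arrays. The differences were -0.26 (adjusted p = 0.343) and -0.32 (adjusted p = 0.211). Without DBA_F1 replicate 1 they were -0.41 and -0.45 and were called (adjusted p = 0.0469 and 0.0272), so the Bcl-xL call turns on that array. The mean of 2 red blood cell genes was 8.76, 8.49 and 8.56 in AKR_F1 and 8.23, 8.80 and 9.14 in DBA_F1. DBA_F1 replicate 1 was the lowest of its group in that mean. AKR_F1 replicate 1 was the highest of its group, though the lowest in 1420888_at. The 2 genes differed in sign between the groups, Slc4a1 with -0.44 and Alas2 with 0.20. The part of the red blood cell signal in the Bcl-xL values was not tested. The third tested probe set, 1426191_a_at, had -0.19 with overlapping groups. The untested 1426050_at ranged from 3.61 to 4.44 in AKR_F1 and from 3.77 to 4.73 in DBA_F1.

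Mcl-1 is a short-lived protein that many cells need for survival. Its brightest probe set, 1437527_x_at, had 11.05, 10.94 and 10.97 in AKR_F1 and 11.02, 11.02 and 10.88 in DBA_F1. All 6 Mcl1 probe sets overlapped between the groups. Their differences ran from -0.071 in 1456381_x_at to 0.10 in 1416881_at, with 1456243_x_at, 1448503_at and 1416880_at in between. The 95% intervals of all 6 lay between -0.199 and 0.25.

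The pore former Bak was measured by a probe set at 1418991_at with 6.60, 6.66 and 6.69 in AKR_F1 and 6.62, 6.42 and 6.70 in DBA_F1. The groups overlapped, with a difference of 0.07 (95% interval -0.137 to 0.28). The second probe set, 1425716_s_at, had 4.59 to 4.90 in AKR_F1 and 4.76 to 4.92 in DBA_F1 and, with a mean 0.073 above the filter, was the member nearest to it among those tested.

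**Figure D4:**
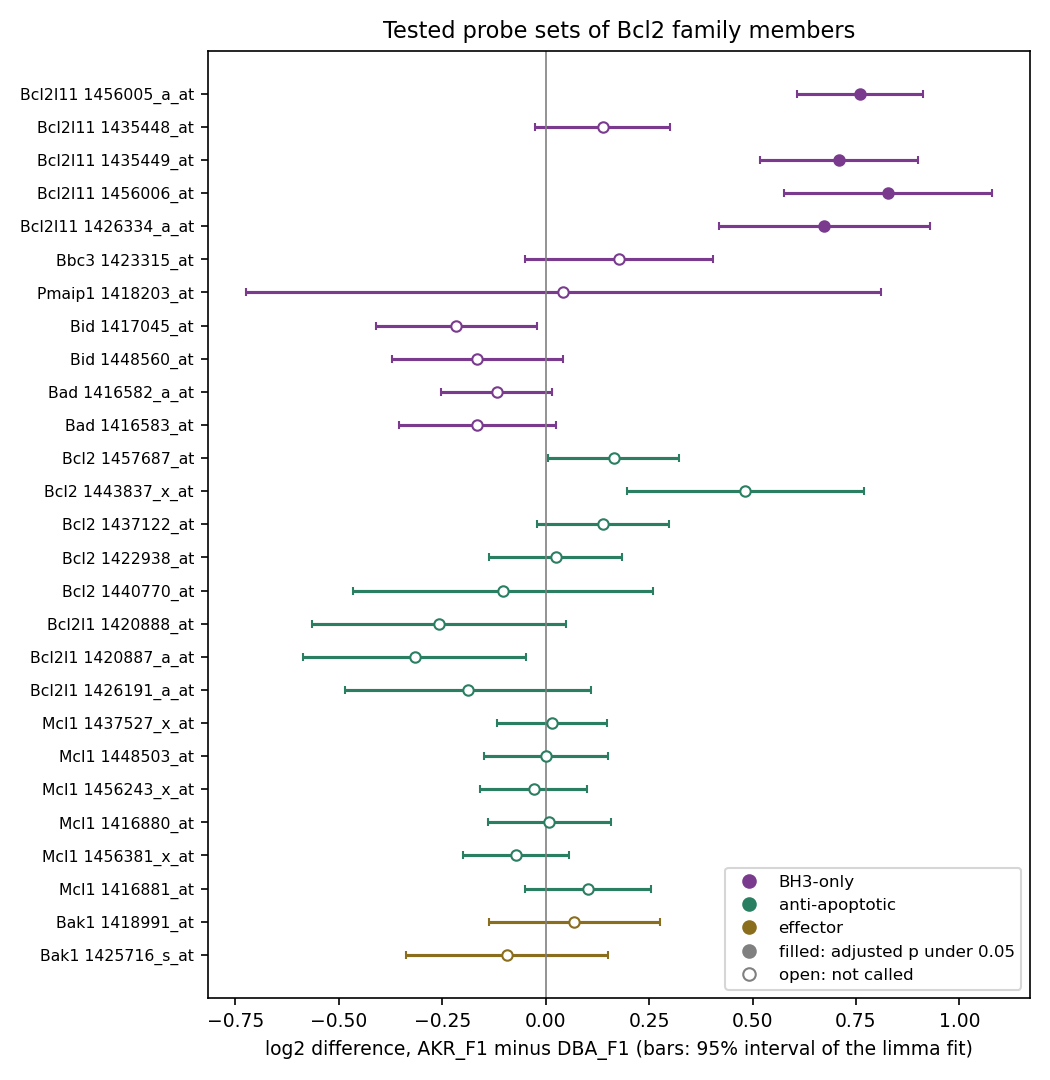
Log2 difference (AKR_F1 minus DBA_F1) of the 27 tested member probe sets with 95% intervals, coloured by role; filled points are called. The 4 filled points, all of Bcl2l11, lie between 0.67 and 0.83, and the open points lie between -0.32 and 0.48.

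The rest of the apoptosis pathway was read from 6 lists with 91 genes, of which 77 were tested by their brightest probe set (Apaf1 stands in both the apoptosome and the p53 list). Casp9 was higher and Bnip3 lower in AKR_F1, and the other 75 were not called. That is 2.6% of the 77, against 2.48% of all tested genes, and the median difference was 0.010 against 0.015 over all genes. The 2 calls are 1 in each direction. Caspase-9, the initiator that the apoptosome activates after cytochrome c release, had 7.45, 7.43 and 7.33 in AKR_F1 and 7.02, 7.02 and 6.91 in DBA_F1 by 1457816_at. The groups were well apart (0.42 ± 0.066 SE, adjusted p = 0.0256), and its other probe sets had 0.35 and 0.26 and were not called. The call was lost in all fits that left out an array other than AKR_F1 replicate 3 (adjusted p up to 0.116). It was also lost with the squamous or the adipocyte mean as a covariate (limma adjusted p = 0.959 with the adipocyte mean). Bnip3, a mitochondrial protein with a BH3-like stretch that hypoxia induces and that promotes removal of mitochondria, had 9.51, 9.62 and 9.61 in AKR_F1 and 10.00, 10.42 and 10.28 in DBA_F1. It was 1.57-fold lower in AKR_F1 (-0.65 ± 0.104 SE, adjusted p = 0.0266), and the call was lost without AKR_F1 replicate 1 or 2 or DBA_F1 replicate 2 or 3, with an adjusted p of 0.114 at the highest.

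By list, 1 of 10 other Bcl2 family genes was called, Bnip3, while Bcl-w (Bcl2l2, 0.18) and the BH3-only genes Bik (0.18) and Bmf (0.12) were not. Of 11 apoptosome, mitochondrial and caspase genes 1 was called, and cytochrome c (Cycs) had -0.45 ± 0.104 without overlap and without a call (adjusted p = 0.0817). The adipocyte list was likewise lower on every AKR_F1 array, and its part in the Cycs values was not tested. With the adipocyte mean as a covariate Bnip3 had -0.58 and was not called (adjusted p = 0.959), and it was not called with the squamous mean either. None of 7 inhibitor of apoptosis genes was called, with Birc5 at 0.53 and Xiap at 0.07 by the brightest probe set. Birc5 had 4.85, 4.66 and 5.71 in AKR_F1 and 4.56, 4.37 and 4.69 in DBA_F1, with overlapping groups. Apart from AKR_F1 replicate 3, these signals lay close to the filter level of 4.72. The other Xiap probe sets had 0.29 without overlap (limma adjusted p = 0.0985) and 0.31 with overlap, and were not called. None of 10 death receptor genes was called. The largest difference among them by the brightest probe set was that of the death ligand TRAIL (Tnfsf10), 0.71 ± 0.162 (SE, limma adjusted p = 0.0798). TRAIL had 9.57, 9.38 and 9.24 in AKR_F1 and 9.06, 8.48 and 8.53 in DBA_F1. Its 2 other probe sets had 0.85 and 0.66, also without overlap and without a call.

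None of 17 genes of p53 and its targets was called by the brightest probe set. The cell cycle inhibitor p21 (Cdkn1a) had -0.44 with overlapping groups, the p53 ubiquitin ligase Mdm2 had 0.17, and the desmosomal p53 target Perp had -1.08 ± 0.463 (SE, adjusted p = 0.275). Perp signals were 7.85, 7.99 and 9.68 in AKR_F1 and 9.43, 9.94 and 9.41 in DBA_F1. The low arrays were AKR_F1 replicates 1 and 2, which were also those with the low squamous mean, and the part of that signal in the Perp values was not tested. Of 23 regulators of the members none was called by its brightest probe set. Foxo3, an inducer of Bim, had -0.25 (adjusted p = 0.492) and Foxo1 had -0.075 (adjusted p = 0.652), both with overlapping groups. The stress factor CHOP (Ddit3), known to induce Bim under endoplasmic reticulum stress, had 8.10, 8.29 and 8.08 in AKR_F1 and 7.86, 7.83 and 7.96 in DBA_F1 (0.27 ± 0.077 SE, adjusted p = 0.132). A dimmer probe set of the 14-3-3 protein Ywhaq, 1437608_x_at, was called (-0.32 ± 0.061 SE, adjusted p = 0.0494), but in only 3 of 17 alternative fits.

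**Figure D5:**
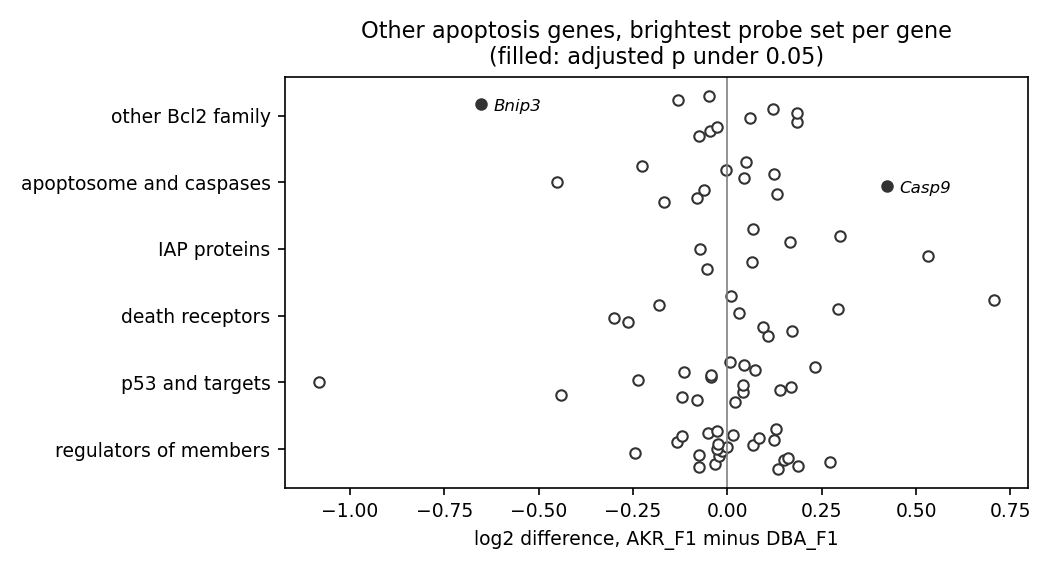
Log2 difference (AKR_F1 minus DBA_F1) of the brightest probe set of each tested gene in 6 apoptosis lists, with filled points for called genes; vertical scatter within a list only spreads the points. Casp9 (0.42) and Bnip3 (-0.65) are filled, and Tnfsf10 (0.71) and Perp (-1.08) lie farther out but are open.

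The genes whose array profile was nearest to that of Bim were found for 1456006_at, the Bim probe set with the largest difference, by the Euclidean distance between mean-centred log2 profiles over the 6 arrays. They were 2010315B03Rik (distance 0.158), the WD repeat gene Wdr37 (0.161) and the endothelial and blood transcription factor Fli1 (0.222). Fli1 had 7.87, 7.87 and 8.05 in AKR_F1 and 7.27, 7.07 and 7.22 in DBA_F1. These were the nearest among the tested probe sets with a single gene symbol, leaving out those of Bim. They rest on only 6 arrays and are given as a description.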

How the data were processed

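Signals were measured on Affymetrix 3' expression arrays from total RNA of lung on 6 arrays, 3 per cross. The authors deposited log2 values with near-equal medians on all arrays. MAS5 and RMA are named in the submitters' processing notes, with no version and no word on which of them made the table, so the log2 scale was inferred from the range (1.90 to 14.56) and the array medians (5.46 to 5.49). No further normalization was applied. Precision is limited by the number of arrays. The 64 control probe sets were left out. Of the other 45037, 34945 had 1 gene symbol, 932 had several and were not named, and 9160 had none. A filter on the 6-array mean removed the dimmest 40% and kept 27022. The fit used limma 3.58.1 in R 4.3.3 (lmFit, eBayes with trend, two-sided, group as the only term, 4 residual and 3.06 prior degrees of freedom). It was tested on simulated data. The members, lists, tests and alternatives were chosen with earlier results of these data known, and the neighbour comparison after the members' values were seen. All member probe sets are named, as are called probe sets of the 6 other lists, the 2 genes with the largest differences in each or well-known examples. Same-numbered arrays of the crosses did not deviate together (correlations of 0.311, -0.228 and -0.050), so the numbers were not taken as pairs.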

Additional observations from a re-analysis of the deposited data

How the results depend on the processing

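Of 454 values of the 27 member probe sets under 17 alternatives, 409 kept their side of the threshold within the spread of the arrays, 17 lost a call, 2 gained a call, 26 moved by more than that spread (15 of them with the adipose covariate), and 0 called values changed sign. The 4 Bcl2l11 calls stood under quantile normalization, median centring, no filter, eBayes without a trend, robust eBayes, array weights and the replicate block, which gave 4 member calls and 539 calls over all probe sets and changed no member call. The 60% filter tested only 2 of the 4 and called 2. Leaving out each array gave 2 to 5 member calls, 198 to 1171 over all probe sets and 0 to 3 other apoptosis genes. The low ends came without AKR_F1 replicate 1 (2, 198 and 0), AKR_F1 replicate 2 (2, 199 and 0) and DBA_F1 replicate 2 (3, 249 and 0). In these limma fits 10, 13 and 10 of the 77 other apoptosis genes had an unadjusted p under 0.05. Over all 27022 tested probe sets 3485, 3682 and 3361 did. Without AKR_F1 replicate 3 there were 1171 calls over all probe sets, and without DBA_F1 replicate 3 there was 1 among the other apoptosis genes. Array weights gave 1198 calls in all and 4 among the other apoptosis genes. AKR_F1 replicate 3 alone against DBA_F1, where the lone array is assumed to vary like DBA_F1, gave 85 calls in all, 0 among members (5 at an unadjusted p under 0.05) and 0 among the other genes (6). The squamous covariate gave 266 calls in all, 1 among members and 0 among the other apoptosis genes. At an unadjusted p under 0.05 in that limma fit were 8 of the 77 other genes and 3212 of all 27022 tested probe sets. The adipose covariate gave 4 calls in all, 0 among members and 0 among the other genes. At an unadjusted p under 0.05 were 2 of the 27 member probe sets, 2 of the 77 other genes and 1264 of all tested probe sets. Some of these fits use fewer arrays and the covariate fits add a term, and the cause of the changes was not tested. Low signal over background limits the dim probe sets of Bak1, Bid and Bcl2l1, and also Bcl2l11 1426334_a_at, 1 of the 4 called. Its mean log2 signal of 5.43 lay 0.712 above the filter, against 5.50 and 0.779 for Bid 1448560_at.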
